A study of Mus musculus with 12 samples.

Results

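The 10 genes described here encode heat shock proteins and their cochaperones: Hspa1a, Hspa1b, Hspa8, Hsp90aa1, Hsp90ab1, Dnajb1, Dnaja1, Hsph1, Hspd1 and Hspe1. They were taken by symbol from a deposited table of 13207 genes. All 10 were found, all 10 have values in every library, and all 10 passed the filter on low values. They were followed over 12 RNA sequencing libraries of thymocytes from C57BL/6 mice that had received tamoxifen at 10 μg per g of body weight 7 days before harvest, a treatment that all groups share. Every group was sorted as CD4+ cells. CD73+ new Treg were tdTomato+GFP+CD73+ regulatory T cells, CD73- new Treg were tdTomato+GFP+CD73- regulatory T cells, new Tconv were tdTomato+GFP-CD73- conventional T cells, and tdTomato- Treg were tdTomato-GFP+ cells that were not divided by CD73. Each group has 3 libraries, whose titles carry the letter A, B or D. The labels do not say what the letter stands for, whether libraries came from separate animals or how many animals were pooled, and they give no age and no promoter for the recombinase, so p-values measure only the spread of these libraries, and that spread may be technical.

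Heat shock proteins are molecular chaperones: they bind unfolded or newly made proteins and help them reach or regain their fold. HSP70 proteins work in a cycle of ATP hydrolysis that J-domain proteins (HSP40) start and HSP110 proteins reset, HSP90 proteins take over clients such as kinases and steroid receptors, and HSP60 with HSP10 forms the folding chamber of the mitochondrial matrix. The inducible members are switched on by heat shock factor 1 (HSF1), which binds inverted repeats of GAA upstream of their start sites, and they are known to respond to warming, proteotoxic stress and tissue dissociation, while Hspa8 and Hsp90ab1 are expressed constitutively in most cells, T cells included.

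Levels are log2 CPM (CPM being counts scaled to the same library size) as deposited, in 2 tables of 6 libraries that the authors scaled separately: the first table holds the CD73+ and CD73- new Treg, the second the tdTomato- Treg and the new Tconv. Group comparisons were therefore made only within a table, while letters were compared within all 4 groups at once. Libraries had an effective depth of 11000000 to 21400000 counts, so that the upper limit a count of 0 allows, 3 counts, lies at a log2 CPM of -2.61 to -1.65, far below the values of all 10 genes. This limit covers counting error only. The 10 genes together made up 0.256% to 0.412% of a library's CPM, while the single gene Lars2 made up 16.1% to 32.4%. Foxp3, the defining transcription factor of Treg, lay between 9.07 and 9.25 in the 9 Treg libraries and between -0.77 and 0.88 in new Tconv, and Cd4 lay between 8.33 and 9.42 in all 12. Summed markers of other cells were low: 2.39 to 7.6 CPM over 4 B cell genes, 15.7 to 35.1 CPM over 8 myeloid and dendritic genes, 67.2 to 144 CPM over 5 erythroid genes, 2.35 to 7.69 CPM over the 2 of 4 thymic epithelial genes with values, and 22.3 to 50.1 CPM over 6 CD8 and double-positive thymocyte genes, apart from 75.5 CPM in CD73- library B. None of these 5 sums had its highest value in D in all 4 groups.

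Libraries of different letters differed in most of these genes, within every sorted population. In a limma fit with 4 group means and the letter, the F-test over the letter called 8 of the 10 members at an adjusted p under 0.05. Of all 11167 genes, 2.44% were called. This fit counts the 4 libraries of a letter as separate replicates of it. If they are parts of the same sort or pool, which the labels do not say, its SE and p-values measure only how alike those parts are. In all, 6 members (Hspa1a, Hspa1b, Dnajb1, Hsph1, Hsp90aa1 and Dnaja1) were higher in D than in both A and B in every one of the 4 groups, against 2.05% of all genes. The same 6 members passed the test for D above A, which called 23 genes in all (0.206%; higher in D, 0.188%), and for D above B (2.74% called; higher in D, 2.01%). Hspd1 had another pattern, with its highest value in B in every group (3.17% of genes did). It was lower in D than in B (0.725% of genes were) and was not called between D and A. Between B and A, Hspa1a and Hspa1b were lower in B (1.39% of genes were) and Hspa8 and Hspd1 were higher in B (0.591% of genes were; 1.98% called in all). Hsp90ab1 and Hspe1 passed none of these tests (letter F-test, adjusted p = 0.238 and 0.460). The median difference over the 10 members was 0.27 log2 for D against A, 0.18 for D against B and 0.06 for B against A, beside medians over all genes of 0.00, 0.00 and 0.00.

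**Figure D1:**
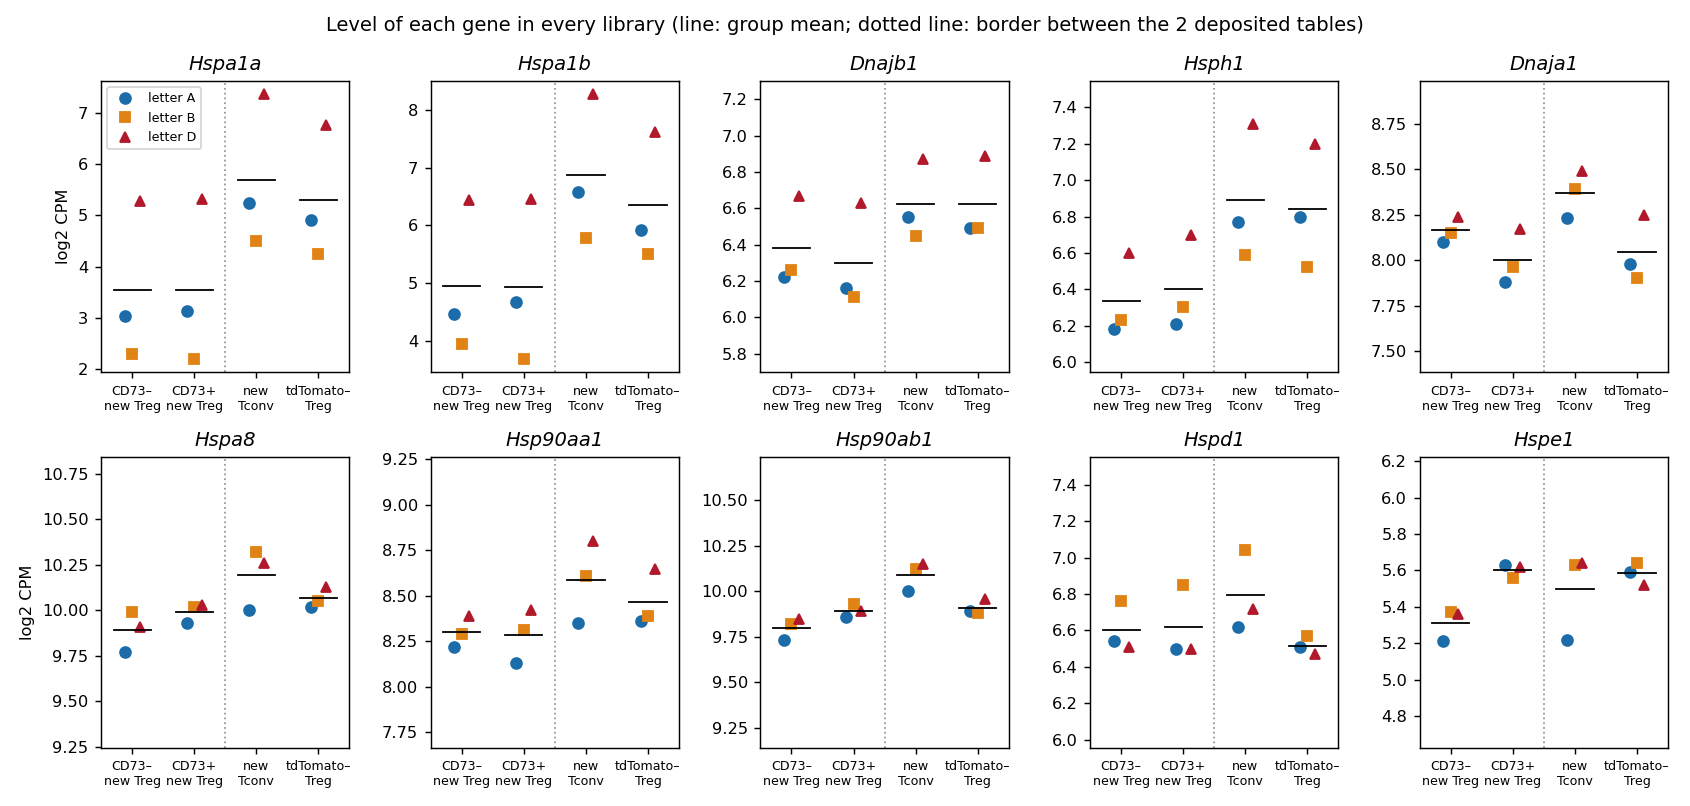
Level of each of the 10 genes (log2 CPM, vertical axis, a range of its own in each panel) in the 12 libraries, by sorted group and by letter (circle A, square B, triangle D); the line is the group mean, and the dotted line divides the 2 separately scaled tables. The triangles stand highest in all 4 groups in 6 panels (Hspa1a, Hspa1b, Dnajb1, Hsph1, Dnaja1 and Hsp90aa1), and the squares do so for Hspd1.

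Hspa1a and Hspa1b encode the stress-inducible cytosolic HSP70 and lie side by side on chromosome 17, on the minus strand (GENCODE M21 coordinates, GRCm38: Hspa1a, ENSMUSG00000091971.3, chr17:34969190-34972156; Hspa1b, ENSMUSG00000090877.3, chr17:34956436-34959238). Their coding sequences, taken as the longest open reading frame of the annotated transcripts, are 99.43% identical and share an exact run of 638 bases, so the split of reads between both copies is uncertain. Their upstream regions are nearly the same too. The 250 bases before the RefSeq start site (GRCm38.p6, minus strand, chr17:34972157-34972406 for Hspa1a and chr17:34959239-34959488 for Hspa1b) differ at 3 positions, and are shown because both genes moved together by letter. Capitals mark the only match on either strand to a pair of facing GAA units, GAANNTTC or TTCNNGAA, which begins 104 bases before the start in both.
Hspa1a: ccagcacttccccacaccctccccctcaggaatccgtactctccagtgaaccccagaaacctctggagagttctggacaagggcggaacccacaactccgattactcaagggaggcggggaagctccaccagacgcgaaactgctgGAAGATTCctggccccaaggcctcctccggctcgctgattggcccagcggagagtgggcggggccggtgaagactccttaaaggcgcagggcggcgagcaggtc
Hspa1b: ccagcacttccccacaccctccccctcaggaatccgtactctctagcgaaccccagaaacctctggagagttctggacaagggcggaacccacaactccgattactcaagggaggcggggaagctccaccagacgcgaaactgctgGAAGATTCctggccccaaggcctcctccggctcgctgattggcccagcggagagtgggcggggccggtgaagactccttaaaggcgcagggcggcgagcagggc
Such a pair is common. It was found in 15.1% of 32851 RefSeq promoter windows of 300 bases (250 before to 50 after the start), and a match is a description of these letters, not a binding site.

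Hspa1a had the widest range of the 10 genes on the log2 scale, 5.16, from 4.59 to 164 CPM. In CD73- new Treg its log2 CPM was 3.04 in library A, 2.29 in B and 5.28 in D. In CD73+ new Treg the values were 3.13, 2.20 and 5.31 in the same order. The 2 Treg populations were thus nearly superimposed, letter by letter. In tdTomato- Treg the values were 4.91, 4.25 and 6.76, and in new Tconv 5.23, 4.50 and 7.36. Every group had its lowest value in B, a middle value in A and its highest in D, an order that only Hspa1a and Hspa1b of the 10 genes had in all 4 groups and that 0.484% of all genes had. The difference of D from B was 2.87 on the log2 scale (SE 0.09, adjusted p = 3.79e-14), 7.30-fold, with 2.51 to 3.11 in the single groups. The difference of D from A was 2.10 (SE 0.09, adjusted p = 1.33e-11), 4.29-fold, and B lay 0.77 below A (log2 difference -0.77, SE 0.09, adjusted p = 3.38e-05). Leaving out any of the 12 libraries in turn kept all 3 calls, with 2.80 to 2.97 for D against B.

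Hspa1b gave the same picture at a higher level. Its log2 CPM in libraries A, B and D was 4.46, 3.95 and 6.44 in CD73- new Treg, 4.68, 3.69 and 6.45 in CD73+ new Treg, 5.92, 5.51 and 7.62 in tdTomato- Treg, and 6.58, 5.78 and 8.27 in new Tconv. It exceeded Hspa1a by 0.86 to 1.66 log2 in every library. D was above B by 2.46 (SE 0.08, adjusted p = 6.06e-14; 5.51-fold) and above A by 1.79 (SE 0.08, adjusted p = 2.52e-11; 3.45-fold), and B minus A was -0.68 (SE 0.08, adjusted p = 5.09e-05), a call lost without the intensity trend (adjusted p = 0.0861). Over the 12 libraries, the deviations of Hspa1b from its group means followed those of Hspa1a with a Pearson r of 0.998, a description over libraries that share letters and, in part, reads of near-identical genes.

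**Figure D2:**
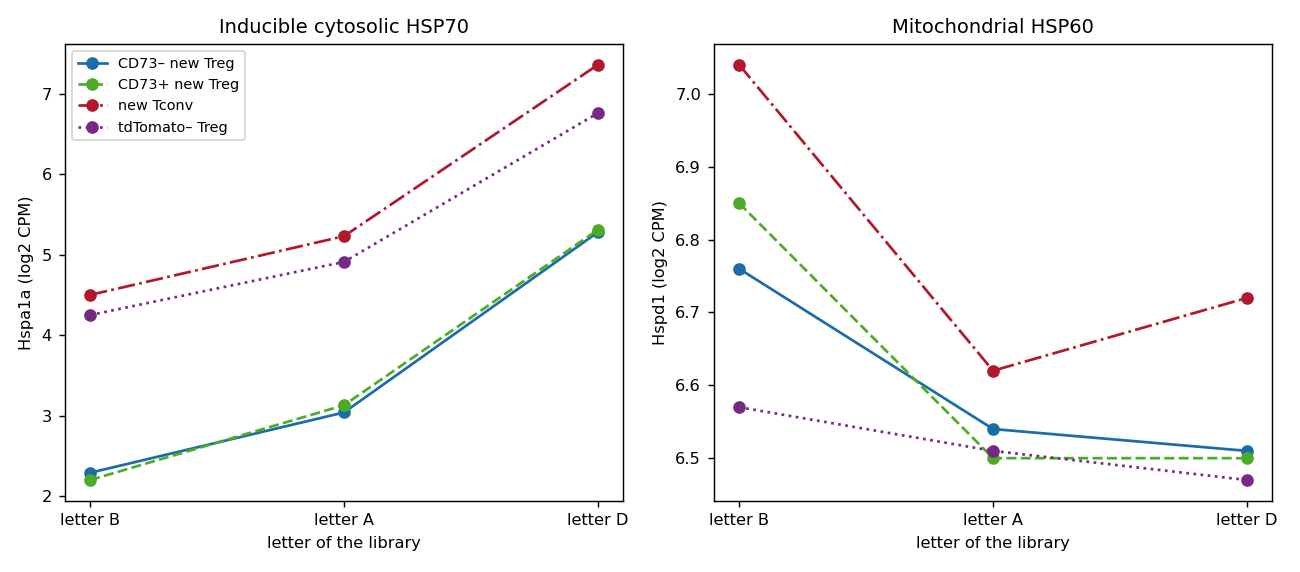
Level (log2 CPM, vertical axis) of Hspa1a, left, and Hspd1, right, in the libraries of letters B, A and D (horizontal axis; the letters have no order of their own), with a line joining the 3 libraries of each sorted group. Hspa1a was lowest in B and highest in D in all 4 groups, while Hspd1 was highest in B in all 4.

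The HSP70 partners followed the same libraries with smaller steps. Dnajb1 (ENSMUSG00000005483.10, chr8:83608193-83612653, plus strand), the J-domain protein that delivers clients to inducible HSP70, was at 6.22, 6.26 and 6.67 log2 CPM in A, B and D of CD73- new Treg and at 6.16, 6.11 and 6.63 in CD73+ new Treg. It was at 6.49, 6.49 and 6.89 in tdTomato- Treg and at 6.55, 6.45 and 6.87 in new Tconv. A and B stood close together and D above them in each group. D exceeded A by 0.41 (SE 0.05, adjusted p = 3.98e-05; 1.33-fold) and B by 0.44 (SE 0.05, adjusted p = 5.69e-06; 1.35-fold), while B minus A was -0.03 (adjusted p = 0.802).

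Hsph1 (ENSMUSG00000029657.15, chr5:149614287-149636376, minus strand), the HSP110 that exchanges the nucleotide of HSP70, was at 6.18, 6.23 and 6.60 in A, B and D of CD73- new Treg, 6.21, 6.30 and 6.70 in CD73+ new Treg, 6.80, 6.52 and 7.20 in tdTomato- Treg, and 6.77, 6.59 and 7.31 in new Tconv. D was highest in all 4 groups, whereas A and B changed places between the tables. D exceeded A by 0.46 (SE 0.06, adjusted p = 2.55e-04; 1.38-fold) and B by 0.54 (SE 0.06, adjusted p = 9.58e-06; 1.46-fold), and both calls held without any one library, as did those of Dnajb1. Within the 6 libraries of tdTomato- Treg and new Tconv alone, the D against A difference of Dnajb1 was 0.36 and missed the threshold (adjusted p = 0.153), and without the intensity trend that of Hsph1 missed it (adjusted p = 0.235).

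Dnaja1 (ENSMUSG00000028410.13, chr4:40722150-40737149, plus strand), a J-domain protein that is present constitutively and rises with stress, was at 8.10, 8.15 and 8.24 in A, B and D of CD73- new Treg and at 7.88, 7.96 and 8.17 in CD73+ new Treg. In tdTomato- Treg it was at 7.98, 7.90 and 8.25, and in new Tconv at 8.23, 8.39 and 8.49. D was highest in each group, by as little as 0.09. The fitted excess of D was 0.24 over A (SE 0.04, adjusted p = 0.0126) and 0.19 over B (SE 0.04, adjusted p = 0.0238). These calls were less stable than those of Dnajb1: the excess over A missed the threshold without CD73+ A, CD73+ D, tdTomato- Treg D or new Tconv A (adjusted p = 0.0901 to 0.121), and the excess over B without CD73+ B, CD73+ D, CD73- B, tdTomato- Treg D or new Tconv D (adjusted p = 0.0540 to 0.127).

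Hsp90aa1, Hsp90ab1 and Hspa8 had the highest group means of the 10 genes per kilobase of the union of their annotated exons. Hsp90aa1 (ENSMUSG00000021270.13, chr12:110690605-110702728, minus strand), the stress-responsive cytosolic HSP90, was at 8.22, 8.29 and 8.39 in A, B and D of CD73- new Treg, 8.13, 8.31 and 8.42 in CD73+ new Treg, 8.36, 8.39 and 8.65 in tdTomato- Treg, and 8.35, 8.61 and 8.80 in new Tconv. A was lowest and D highest in all 4 groups. D exceeded A by 0.30 (SE 0.04, adjusted p = 7.85e-04), a call that held without any one library but not without the intensity trend (adjusted p = 0.365) or in the tdTomato- Treg and new Tconv table alone (0.0817). It exceeded B by 0.17 (SE 0.04, adjusted p = 0.0427), a call lost without any one of 8 libraries (CD73+ A, B or D, CD73- B, tdTomato- Treg A, B or D, or new Tconv D; adjusted p = 0.0559 to 0.185). Without tdTomato- Treg B, the difference of B from A was called as well (0.17, adjusted p = 0.0239).

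Hsp90ab1 (ENSMUSG00000023944.14, chr17:45567775-45573271, minus strand), the constitutive cytosolic HSP90, spanned 0.42 log2 over all 12 libraries, from 9.73 in CD73- A to 10.15 in new Tconv D. Its coding sequence is 75.34% identical to that of Hsp90aa1. Hspa8 (ENSMUSG00000015656.17, chr9:40800984-40810087, plus strand) encodes the constitutive HSC70, and its coding sequence is 73.93% identical to that of Hspa1a. It spanned 0.55 log2, with 9.77, 9.99 and 9.91 in A, B and D of CD73- new Treg, 9.93, 10.02 and 10.03 in CD73+ new Treg, 10.02, 10.05 and 10.13 in tdTomato- Treg, and 10.00, 10.32 and 10.26 in new Tconv. A was lowest in each group. B exceeded A by 0.17 (SE 0.04, adjusted p = 0.0341), a call lost without CD73+ B or D, CD73- A, B or D, or new Tconv A or B (adjusted p = 0.0518 to 0.182), and D minus A was 0.15 (adjusted p = 0.216).

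Hspd1 (HSP60) and Hspe1 (HSP10) form the chaperonin of the mitochondrial matrix. They lie head to head on chromosome 1 (Hspd1, ENSMUSG00000025980.14, chr1:55077835-55088243, minus strand; Hspe1, ENSMUSG00000073676.4, chr1:55088132-55091307, plus strand). Between the RefSeq start of Hspe1 and one of those of Hspd1 lies a run of 18 bases that a promoter window of each gene contains. The Hspd1 window at chr1:55088194-55088493 does not contain it. It is shown here on the plus strand with 6 bases on each side (GRCm38.p6, chr1:55088053-55088082, from 95 to 66 bases before the Hspe1 start), because both genes share it. B minus A was 0.26 (SE 0.05) for Hspd1 and 0.14 (SE 0.07) for Hspe1, and a difference between the 2 genes over the letters was not tested. Capitals mark the run of alternating GAA and TTC units.
Hspe1: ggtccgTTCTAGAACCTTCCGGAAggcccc
It holds both GAANNTTCNNGAA and TTCNNGAANNTTC, which are the reverse complement of each other. This form of 3 units, in either orientation, occurred in 0.603% of the 32851 promoter windows and, among the 7 members with windows (12 windows), in those of Hspd1, Hspe1 and Hsph1. The shorter pair, which the longer form contains, was found in 6 of the 7 and not in the windows of Dnajb1.

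Hspd1 was at 6.54, 6.76 and 6.51 log2 CPM in A, B and D of CD73- new Treg and at 6.50, 6.85 and 6.50 in CD73+ new Treg. It was at 6.51, 6.57 and 6.47 in tdTomato- Treg and at 6.62, 7.04 and 6.72 in new Tconv. B was highest in each group, by as little as 0.06 in tdTomato- Treg. B exceeded A by 0.26 (SE 0.05, adjusted p = 0.0106), and D minus B was -0.26 (SE 0.05, adjusted p = 0.0114), while D and A differed by 0.01 (adjusted p = 0.985). The call for B against A was lost without CD73+ A, CD73+ B, new Tconv A or new Tconv B (adjusted p = 0.0529 to 0.0725), and that for D against B without CD73+ B, CD73+ D, CD73- D or new Tconv B (adjusted p = 0.0524 to 0.0823). Hspe1 was at 5.21, 5.37 and 5.36 in A, B and D of CD73- new Treg, 5.63, 5.56 and 5.62 in CD73+ new Treg, 5.59, 5.64 and 5.52 in tdTomato- Treg, and 5.22, 5.63 and 5.64 in new Tconv. No letter was highest throughout. The deviations of Hspd1 from its group means ran against those of Hspa1a over the 12 libraries (Pearson r = -0.64), those of Hspe1 had an r of 0.12, and those of Dnajb1, Hsph1, Dnaja1 and Hsp90aa1 had an r of 0.97, 0.93, 0.78 and 0.68.

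**Figure D3:**
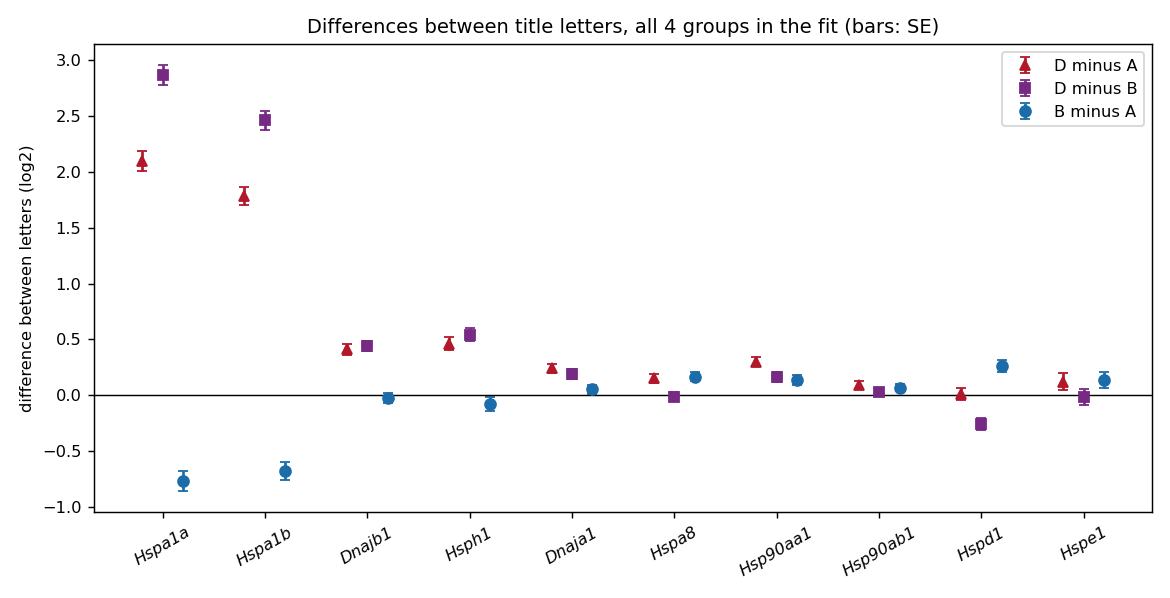
Fitted log2 difference between letters for each gene (vertical axis; D minus A, triangles; D minus B, squares; B minus A, circles; bars, SE of the fit over all 4 groups). Hspa1a and Hspa1b stand at 1.79 to 2.87 for D against the other letters, while no other gene exceeds 0.54.

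The letter differences were not confined to a single table. In the 6 new Treg libraries alone, 8 members passed the letter F-test (2.87% of all genes did), and in the 6 libraries of tdTomato- Treg and new Tconv alone, 4 did (0.367%). A fit without the intensity trend in the empirical Bayes step called 3 members (0.287% of all genes). Without the trend, the calls of Hsp90aa1, Dnaja1, Hspa8 and Hspd1 between single letters were all lost (adjusted p = 0.183 to 0.615), and so were they in the tdTomato- Treg and new Tconv table alone (0.0817 to 1.0). In the limma fit of the new Treg table alone, Hsp90aa1 lost its D against B call (adjusted p = 0.263). Dnaja1 lost those for D against A and D against B there (0.0799 and 0.114). Quantile normalisation lost the D against B calls of Hsp90aa1 (0.120) and Dnaja1 (0.0583) and the B against A call of Hspa8 (0.155). Rescaling without Lars2 lost the D against B call of Hsp90aa1 (0.0741). Leaving out single libraries gave 6 to 8 members in the letter F-test. The number of all genes called moved more, from 112 without CD73- B to 682 without tdTomato- Treg B, against 272 with all libraries, and also fell by over 1.5 times without CD73+ B (139), CD73+ D (144) or CD73- D (174).

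Most genes around the chaperone network were not called for the letter, as was so for most genes, of which 2.44% were called. Lists of these sizes with no call are near that share. None of 21 tested genes listed as other HSP70, HSP110 and HSP40 family passed the limma F-test over the letter (5 had an unadjusted p under 0.05). Nor did any of 15 other mitochondrial chaperones and proteases (3), 17 endoplasmic reticulum chaperones (4) or 14 subunits of the cytosolic chaperonin TRiC and of prefoldin (4). The same held for 2 small heat shock proteins (1) and 4 heat shock factors and regulators (0). The share of all genes with an unadjusted p under 0.05 for the letter is not given here. The unadjusted counts of this paragraph therefore have no background to stand beside, and 2.44% is a share of adjusted calls. Hsf1 itself lay between 5.51 and 5.83 log2 CPM in all 12 libraries. Of 25 cochaperones of HSP70 and HSP90, 2 passed, and 8 had an unadjusted p under 0.05. Both that passed were lower in D than in B. They were Ptges3, the HSP90 cochaperone p23 (-0.30, SE 0.07, adjusted p = 0.022), and Stip1, which links HSP70 to HSP90 (-0.25, SE 0.06, adjusted p = 0.030). Of 12 other genes known to be HSF1-inducible, a list that shares Stip1 and others with the cochaperones, 3 passed, a higher share than that of all genes. In this list, 9 genes had an unadjusted p under 0.05. Of the 3 that passed, 2 were higher and 1 was lower in D than in B. Among them, Zfand2a, an arsenite- and heat-inducible proteasome adaptor, was higher in D than in B (0.48, SE 0.12, adjusted p = 0.037) and lower in B than in A (-0.53, SE 0.12, adjusted p = 0.023).

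Immediate early genes, transcription factor and feedback genes that are induced within minutes of stimulation or of tissue handling, moved with the same libraries. Of 18 such genes 16 were tested, and 11 passed the F-test over the letter (2.44% of all genes did). In all, 12 were higher in D than in B (2.01% of all genes), 6 were higher in D than in A (0.188%), and 10 were lower in B than in A (1.39%). None was called in the opposite direction. Their median difference was 0.71 log2 for D against B, 0.20 for D against A and -0.33 for B against A. Fosb, an AP-1 subunit, was at 6.95, 6.05 and 8.57 log2 CPM in A, B and D of CD73- new Treg, 7.14, 6.34 and 8.69 in CD73+ new Treg, 8.21, 8.0 and 9.55 in tdTomato- Treg, and 4.84, 4.33 and 7.02 in new Tconv. It was lowest in B and highest in D in each group, as was Fos (D minus B 1.597, SE 0.08, adjusted p = 7.9e-11; D minus A 0.95, SE 0.08, adjusted p = 6.9e-07).

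The mean over the 16 immediate early genes was 7.21, 6.78 and 7.57 log2 CPM in A, B and D of CD73- new Treg, 7.27, 6.94 and 7.63 in CD73+ new Treg, 7.59, 7.39 and 7.89 in tdTomato- Treg, and 6.71, 6.38 and 7.26 in new Tconv. Within each group it had the order of Hspa1a. Between groups it did not: new Tconv had the lowest immediate early means at every letter and the highest Hspa1a values at every letter, in levels from tables that were scaled separately. The part of handling in the letter differences was not tested.

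**Figure D4:**
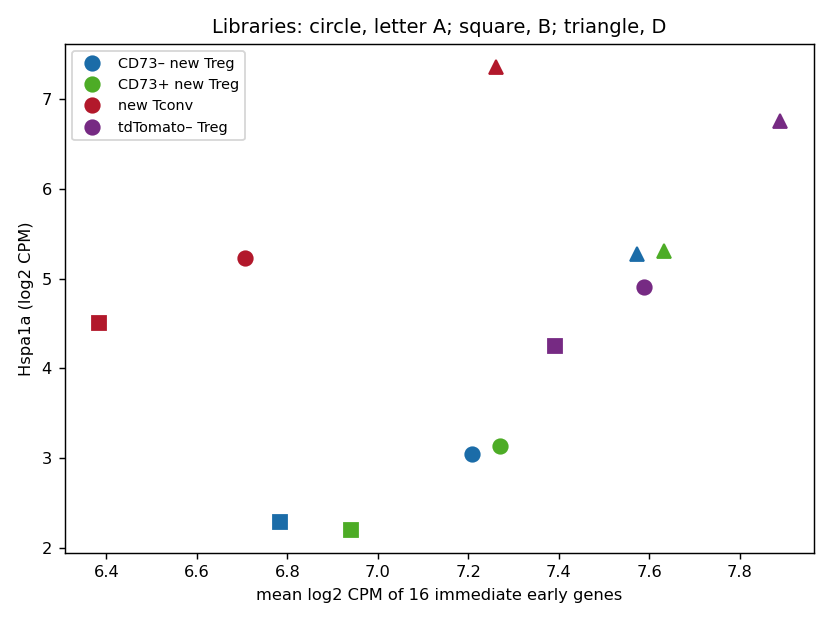
Level of Hspa1a (log2 CPM, vertical axis) against the mean log2 CPM of 16 immediate early genes (horizontal axis) in the 12 libraries, by sorted group (colour) and letter (circle A, square B, triangle D). Both rise from B through A to D within each group, and the new Tconv libraries lie to the left of the Treg libraries of the same letter.

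Among 8049 other genes with a mean log2 CPM of at least 3, the 5 whose deviations from group means were most like the mean deviation of the 10 members over the 12 libraries included Fosb (Pearson r = 0.97), Zfp36 (0.96), Mpp7 (0.95) and Nktr (0.94). Because Hspa1a and Hspa1b vary most, they dominate that mean. The mean itself follows the letters, so the selection largely set the letter differences of these genes. Those differences are a description and no separate evidence. Zfp36, an mRNA decay factor and itself an immediate early gene, was higher in D than in B by 0.75 log2 (SE 0.05), and Mpp7, a membrane scaffold protein, by 0.92 (SE 0.06). Nktr differed far less (D minus B 0.12, SE 0.03).

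CD73+ and CD73- new Treg differed by at most 0.29 log2 in the mean level of any of the 10 genes. CD73 marks, per the sorting scheme, a subdivision of the tdTomato+ Treg, and the comparison asks what distinguishes it. Nt5e, which encodes CD73, was at 7.20 to 7.45 log2 CPM in the CD73+ and at 5.37 to 5.71 in the CD73- libraries, with no overlap. The limma test called none of the 10 members, where 2.47% of 11170 genes were called, and 1 member (Hspe1) had an unadjusted p under 0.05, as 17.2% of genes had. With the letter as a block, 4 members had one (21.1% of genes): Hspe1, Dnaja1 (-0.22, -0.19 and -0.07 in A, B and D; adjusted p = 0.0615), Hsp90ab1 (0.13, 0.11 and 0.04; adjusted p = 0.156) and Hspa8 (0.16, 0.03 and 0.12; adjusted p = 0.199), of which Hspe1 passed the threshold. The median log2 fold change was 0.01 over the members and 0.01 over all genes.

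Hspa1a was at 3.55 ± 1.60 log2 CPM (SD, n = 3) in CD73+ and 3.54 ± 1.56 (SD, n = 3) in CD73- new Treg, a difference of 0.01 with a 95% interval of -1.78 to 1.80. The letters make that interval wide. Within letters the difference was 0.09 in A, -0.09 in B and 0.03 in D, and with the letters modelled as a replicate block the interval was -0.21 to 0.23. For Hspa1b the difference was -0.01, with an interval of -1.55 to 1.53 without the block and -0.21 to 0.19 with it. In the other 8 members the differences were -0.16 (Dnaja1) to 0.29 (Hspe1).

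Hspe1 was higher in the CD73+ library of each letter, by 0.42, 0.19 and 0.26 in A, B and D, and the groups did not overlap (5.56 to 5.63 against 5.21 to 5.37), as was so for 18.2% of genes. Its log2 fold change of 0.29 (SE 0.10) missed the threshold without the block (adjusted p = 0.126) and passed it with the letter as a block (SE 0.08, adjusted p = 0.0485), where 5.89% of genes were called. It also passed without new Tconv A (adjusted p = 0.0396), a library outside the comparison that enters the shared estimate of the spread. Its chaperonin partner Hspd1 differed by 0.01 (95% interval -0.21 to 0.24). In the authors' deposited table, Hspe1 has a log2 fold change of 0.28 and an adjusted p of 0.109, and no member has a lower adjusted p there.

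In the 9 lists of related genes, none of 118 tested genes passed in CD73+ against CD73- new Treg with limma (2.47% of all genes did), and 18 (15.3%) had an unadjusted p under 0.05, beside 17.2% of all genes. With the block, 1 gene passed (5.89% of all genes did), the immediate early gene Ier2 (0.30, adjusted p = 0.0474).

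Between tdTomato- Treg and new Tconv, cell types that differ in lineage and in labelling, most genes differed: 52.1% of 11198 genes were called, 25.7% as lower in tdTomato- Treg. Of the 10 members, 3 were lower in tdTomato- Treg (Hsp90ab1, Dnaja1 and Hspd1), none was higher and 7 were not called. That share is close to the background of lower calls. The median log2 fold change was -0.15 over the members and -0.01 over all genes.

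Dnaja1 was at 8.04 ± 0.18 log2 CPM (SD, n = 3) in tdTomato- Treg and 8.37 ± 0.13 in new Tconv, lower by 0.25, 0.49 and 0.24 in A, B and D. The fold change was -0.33 (SE 0.09, adjusted p = 0.00549), although the groups overlap when letters are ignored, and it missed the threshold without the 4 libraries of letter B (adjusted p = 0.0780). Hsp90ab1 was at 9.89, 9.88 and 9.96 in tdTomato- Treg and at 10.00, 10.12 and 10.15 in new Tconv. These groups do not overlap, as was so for 60.9% of genes, and the fold change was -0.18 (SE 0.05, adjusted p = 0.00632), a call that every alternative kept.

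Hspd1 was at 6.52 ± 0.05 (SD, n = 3) in tdTomato- Treg and 6.79 ± 0.22 in new Tconv, with no overlap. Its fold change of -0.28 (SE 0.11, adjusted p = 0.0370) missed the threshold without tdTomato- Treg A (adjusted p = 0.0827), B (0.0544) or D (0.103) or new Tconv B (0.211), the library with the highest Hspd1 of all 12, and its size fell to 0.15 log2 without that library (-0.15). The call was also lost with all 4 letter D libraries left out (adjusted p = 0.114) and without the intensity trend (0.102). Hspe1, at 5.58 ± 0.06 and 5.50 ± 0.24, was not called (0.09, SE 0.10, adjusted p = 0.472).

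With the letter as a replicate block, 7 members were lower in tdTomato- Treg, where 55.7% of genes were called and 27.8% as lower. The additions were Hspa1b, Hspa1a, Hspa8 and Hsp90aa1. Hspa1b was lower by 0.66, 0.27 and 0.65 log2 in A, B and D. Its fold change was -0.53, with an adjusted p of 0.576 without the block and 1.15e-04 with it. Hspa1a was lower by 0.32, 0.25 and 0.60 in A, B and D (-0.39, adjusted p = 0.728 without and 0.00355 with the block). Hspa8 (-0.13, adjusted p = 0.160 without and 0.0261 with the block) and Hsp90aa1 (-0.12, 0.338 and 0.0455) were not lower in letter A, where tdTomato- Treg exceeded new Tconv by 0.02 and 0.01. In the fit without the block, both were called once new Tconv A was left out (-0.22 and -0.24, adjusted p = 0.00832 and 0.0467). In that same fit, leaving out new Tconv D turned the difference to 0.44 for Hspa1a and 0.17 for Hspa1b. Dnajb1 (0.00) and Hsph1 (-0.05, adjusted p = 0.840) were not called in either fit. For Hspa1a and Hspa1b the letters differed by more (D minus B 2.87 and 2.46) than these populations did. For Hsp90ab1 the population difference was -0.18 (SE 0.05), and its largest fitted letter difference was 0.09 (D minus A, SE 0.03). For Dnaja1 these were -0.33 (SE 0.09) and 0.24 (D minus A, SE 0.04). The gap within either pair was not tested. For Hspd1 the population difference (-0.28, SE 0.11) and the fitted B minus A (0.26, SE 0.05) cannot be ranked. In single groups, letters differed by up to 0.42 for Hspd1 (B minus A, new Tconv) and 0.35 for Dnaja1 (D minus B, tdTomato- Treg).

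**Figure D5:**
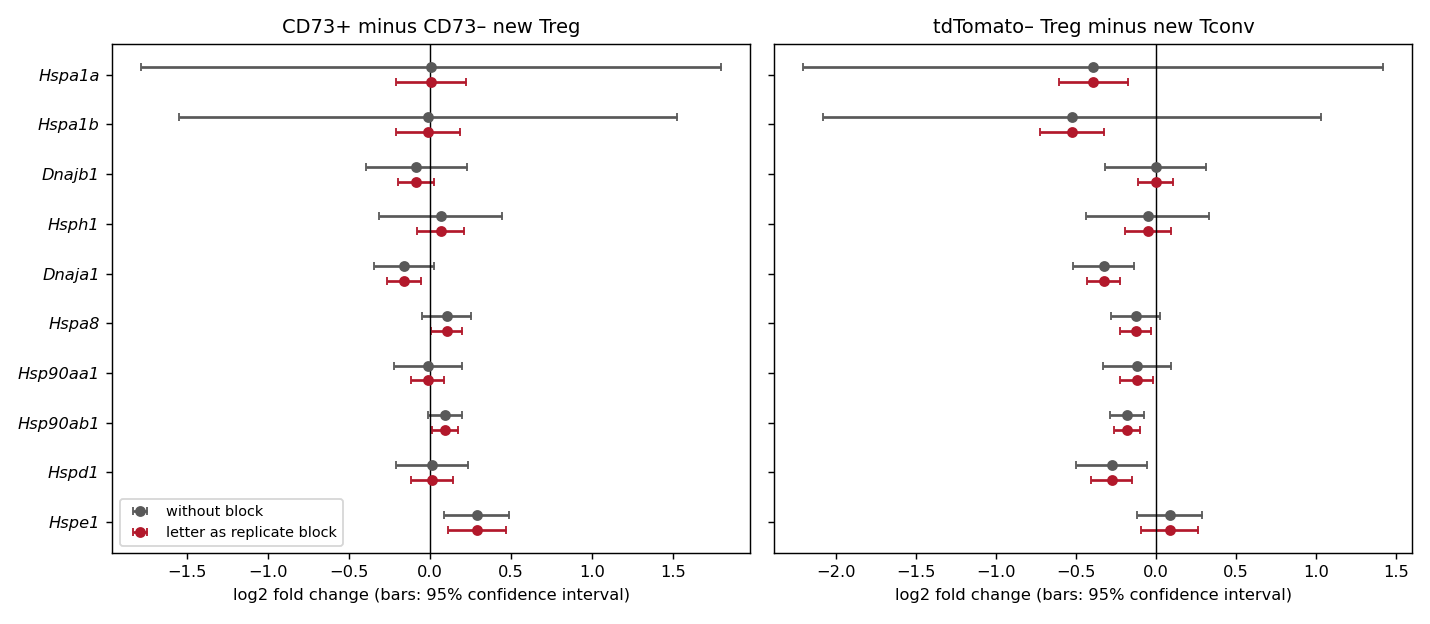
Log2 fold change (horizontal axis; points) with its 95% confidence interval (bars) for each gene in CD73+ minus CD73- new Treg, left, and tdTomato- Treg minus new Tconv, right, without (grey) and with (red) the letter as a replicate block. The block leaves the points in place and narrows the bars of Hspa1a and Hspa1b, whose difference between tdTomato- Treg and new Tconv then lies below 0.

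In the authors' deposited table for this comparison, the same 3 members have an adjusted p under 0.05: Dnaja1 (log2 fold change -0.33, adjusted p = 0.00648), Hsp90ab1 (-0.18, 0.00719) and Hspd1 (-0.28, 0.0248).

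Related genes moved in both directions between tdTomato- Treg and new Tconv. Of 21 genes listed as other HSP70, HSP110 and HSP40 family, 6 were higher in tdTomato- Treg and 4 lower. Dnaja4, a J-domain protein (2.13, SE 0.18, adjusted p = 2.5e-08), and Dnajb14 (0.58, SE 0.08) were higher, and Dnaja2 (-0.34, SE 0.08) and Dnajc5, a synaptic vesicle J-domain protein (-0.20, SE 0.05), were lower. Of 25 cochaperones, 1 was higher and 7 were lower. The higher one was Bag3, an HSP70 nucleotide exchange factor that is itself HSF1-inducible, at 3.36, 3.01 and 3.33 log2 CPM in A, B and D of tdTomato- Treg against 1.10, -0.06 and 0.56 in new Tconv (2.70, SE 0.43, adjusted p = 5.4e-05). Fkbp5, an immunophilin of the steroid receptor complex (-0.42, SE 0.07), and Bag5 (-0.48, SE 0.10) were lower. Of 12 other HSF1-inducible genes, 2 were higher (Bag3 and Hspa4l) and 5 lower, among them Zfand2a (-1.21, SE 0.22, adjusted p = 0.0002) and Chordc1 (-0.42, SE 0.09).

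In the lists of endoplasmic reticulum and mitochondrial chaperones, more genes were lower in tdTomato- Treg than higher. Of 17 endoplasmic reticulum chaperones 9 were lower and 1 higher, with a median log2 fold change of -0.15. Dnajc3, an inhibitor of the kinase PERK and a J-domain cochaperone of BiP (-0.66, SE 0.06), and Hyou1, the HSP110 of that compartment (-0.59, SE 0.06), were lower, and Herpud1, a degradation factor (0.28, SE 0.08), was higher. Of 15 mitochondrial chaperones and proteases 6 were lower, with the smallest p in Clpb (-0.75, SE 0.11) and Yme1l1 (-0.28, SE 0.05), and 1, the protease Htra2, was higher (0.74, SE 0.13). Of 14 TRiC and prefoldin genes 5 were lower, among them Cct6a (-0.43, SE 0.08) and Tcp1 (-0.29, SE 0.06), and 2 were higher, Cct4 (0.21, SE 0.05) and Pfdn5 (0.26, SE 0.10). Of 4 heat shock factors and regulators, Hsf2 was higher (0.75, SE 0.09, adjusted p = 2.5e-06) and Hsbp1, a negative regulator of HSF1, was lower (-0.24, SE 0.09, adjusted p = 0.030). Neither of the 2 small heat shock proteins passed the limma test (1 had an unadjusted p under 0.05). Of 16 immediate early genes 10 were higher, such as Ier5 (0.72, SE 0.10) and Btg2 (0.41, SE 0.06), and Egr1 was lower (-0.32, SE 0.08). With the letter as a block, 14 immediate early genes were higher, the additions being Junb (0.64), Ier2 (0.30), Nr4a1 (0.25) and Ppp1r15a (0.26). The block also took the endoplasmic reticulum chaperones to 10 lower (Pdia4, -0.15), TRiC and prefoldin to 6 lower (Cct5, -0.12), the cochaperones to 2 higher (Tomm34, 0.17) and the other HSF1-inducible genes to 3 higher. These counts stand beside the 26.4% of all genes that were higher and the 25.7% that were lower (27.9% and 27.8% with the block).

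Across the 4 groups, levels of Hspa1a and Hspa1b fell into pairs by deposited table. Mean log2 CPM of Hspa1a was 3.54 in CD73- new Treg, 3.55 in CD73+ new Treg, 5.31 ± 1.30 in tdTomato- Treg and 5.70 ± 1.49 in new Tconv (SD, n = 3), and that of Hspa1b was 4.95, 4.94, 6.35 and 6.88 in the same order. All neighbours in this order overlap when letters are ignored. At each letter, both libraries of the second table lay above both of the first for both genes. The tables were scaled separately and no test was made across them. Over the 12410 genes in both tables, the median difference of the second table from the first was 0.03 log2. A difference between tables and one between the pairs of populations they hold cannot be told apart.

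Per length of the union of their annotated exons, Hsp90ab1, Hspa8 and Hsp90aa1 stood above all other members in every group. That length was 8629 bases for Dnaja1 and 7266 for Hsph1, beside 3931 for Hsp90aa1. A union can exceed the length of a single transcript, so the order of these genes may depend on this choice. On the scale of log2 CPM per kilobase, the group means of Hsp90ab1 were 8.22 to 8.51, those of Hspa8 7.79 to 8.09 and those of Hsp90aa1 6.31 to 6.61. Hspd1 (5.12 to 5.39), Dnaja1 (4.89 to 5.26), Hspe1 (4.75 to 5.04) and Dnajb1 (4.62 to 4.94) followed with overlapping ranges, and Hsph1 lay at 3.48 to 4.03. Hspa1b (3.45 to 5.39) and Hspa1a (1.97 to 4.13) were the lowest in new Treg, where Hspa1b was within 0.1 of Hsph1, and Hspa1b came up to the level of Hspd1 in new Tconv. In these bulk libraries, more RNA per cell and more cells that express a gene cannot be told apart.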

How the data were processed

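Per the submitters' processing notes, STAR, RSEM, limma and the mm10 build were used; their versions and options are not given in the sources used here. Values deposited by the authors were taken as log2 CPM offset by 0.5 count. Unit and offset were read from the values, since the labels do not state them. The values cover 12 libraries in 2 tables of 6, filtered and scaled separately. For their own comparison in each table, the authors give log2 fold changes, p-values and a test statistic, a score that was not used here. Of 13207 genes, 12410 are in both tables, 250 in the first alone and 547 in the second alone.

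From the deposited log2 values, limma 3.58.1 in R 4.3.3 was fitted to all 12 libraries with 4 group means and an intensity trend, for genes that reached a log2 CPM of 0 in 3 or more libraries. Letters were compared in a fit with groups and letters, over 11167 genes in both tables. Tests were two-sided, with Benjamini-Hochberg adjustment over all genes tested and a threshold of 0.05. The fits were tested on simulated data. Same-letter libraries deviated together from their group means (correlation 0.170 to 0.320 between CD73+ and CD73- new Treg, 0.102 to 0.154 between tdTomato- Treg and new Tconv, over 9342 genes with a mean log2 CPM of at least 2). These were above 0.1, so letters were taken to pair libraries within both comparisons. Between the other pairs of groups, which the letter fit pools, they were 0.0684 to 0.385. The blocked value is given where it changes a call. Alternatives were other samples in the fit (single libraries, letters or groups left out), no filter, a pseudocount of 1, 3 other scalings and no trend.

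The 10 genes and the 9 lists of related genes were chosen from general knowledge with earlier results of these data known. Named genes are all members, up to 2 genes per list and direction by p, the sorting genes, Lars2 and the 5 genes most like the members; Hsf1, Ier2 and the genes added by the block were named after their values were seen, and values of some single genes under this rule are not reported here. Promoter windows are from RefSeq (GRCm38.p6), with 7 of 10 members in the table; the other members' windows were not used here.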

Additional observations from a re-analysis of the deposited data

How the results depend on the processing

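Every alternative kept the calls of Hspa1a and Hspa1b for D above A and D above B, and that of Hsp90ab1 in tdTomato- Treg against new Tconv. Of the letter differences of the members, 529 recomputed values kept their side of the threshold and direction, 56 lost the call, 1 gained it and 14 changed sign. The causes were not tested. Each group has 3 libraries, and the labels do not give the meaning of the letters. The lowest member value, 2.20 log2 CPM, lies above the 3-count limit in every library, so depth does not limit detection of the 10 genes.

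In CD73+ against CD73- new Treg, 276 genes were called. With the replicate block 658 were called, with only the 2 groups compared 146, without the 4 libraries of letter A 25, without those of letter D 41, and with no trend 107. Leaving out single libraries gave 100 (without CD73+ B) to 393 genes, with counts lower by over 1.5 times also without CD73+ A (105), CD73- A (161), CD73- D (134) or tdTomato- Treg A (172), and 0 to 1 members; the block gave 1 member. In tdTomato- Treg against new Tconv, the replicate block gave 7 members in place of 3, and leaving out single libraries 2 to 5. The letter F-test called 272 genes and 8 members. In the tdTomato- Treg and new Tconv table alone it called 41 genes and 4 members, with no trend 32 genes and 3 members, and with single libraries left out 112 to 682 genes. With the block, no call of a member was lost in either comparison.

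Sign changes were seen only in values that missed the threshold in the fit without the block. In CD73+ against CD73- new Treg, Hspa1a (0.01) became -0.03 without the letter A libraries, -0.041 with quantile normalisation and -0.0067 with each library centred on its median. Hspa1b (-0.01) became 0.115 without the letter B libraries and 0.0073 when rescaled without Lars2. Hsp90aa1 (-0.01) became 0.025 without the letter A libraries and 0.020 with quantile normalisation, and Hspd1 (0.01) became -0.025 without the letter B libraries. Leaving out single libraries gave -0.87 to 0.88 for Hspa1a, -0.77 to 0.74 for Hspa1b, -0.08 to 0.065 for Hsp90aa1, -0.25 to 0.06 for Dnajb1, -0.082 to 0.20 for Hsph1 and -0.10 to 0.092 for Hspd1.

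In tdTomato- Treg against new Tconv, Hspe1 (0.09) became -0.055 without the letter A libraries, and single libraries left out gave -0.052 to 0.16 for Hspe1, -1.12 to 0.44 for Hspa1a, -1.16 to 0.17 for Hspa1b and -0.23 to 0.16 for Hsph1. Among letter differences, Hspd1 in D against A (0.01) became -0.015 in the new Treg table alone, -0.0098 with quantile normalisation and -0.011 when rescaled without Lars2. Hspe1 in D against B became 0.025 and Hsph1 in B against A 0.07 in the new Treg table alone. Hspa8 in D against B became 0.01 in the other table alone and 0.025 with quantile normalisation. Single libraries left out gave -0.034 to 0.049 for Hspd1 in D against A, and in D against B -0.050 to 0.021 for Hspa8 and -0.069 to 0.035 for Hspe1.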
